A study of Canis lupus familiaris with 17 samples.

Results

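Interferon-signature T cells were cell barcodes of dog blood, taken as T cells by CD3E, that held several transcripts of interferon-stimulated genes at once. They were chosen by raw counts of unique molecular identifiers (UMIs, 1 per captured transcript): a cell had at least 1 UMI of CD3E, none of MS4A1 and S100A12, and at least 5 summed UMIs of IFI44, IFI44L, ISG15, XAF1, IFIT1, RSAD2 and OAS1 with at least 3 of these 7 genes detected. Of 84345 barcodes that passed quality filters, 43254 were T cells by the same 3 lineage genes, and 908 of these were members (2.10% of T cells and 1.08% of all barcodes). The other 42346 T cells served as the reference. Peripheral blood mononuclear cells came from 7 healthy and 10 osteosarcoma (OS) dogs, 1 library each, all primary cells labelled wild type. The dogs were client-owned, of both sexes and of varying breeds, and the OS dogs carried a primary tumor and had not yet been treated. The healthy dogs were middle-aged, whereas the OS dogs ranged from middle-aged to old, so that age and disease cannot be fully told apart.

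Type I interferons are secreted when a cell senses foreign or misplaced nucleic acid. They bind a receptor found on nearly every cell, activate the kinases JAK1 and TYK2 and transcription factors such as STAT2 and IRF9, and thereby switch on a common set of interferon-stimulated genes, among them enzymes that destroy or sense viral RNA, ubiquitin-like modifiers and parts of the antigen presentation machinery. Interferon gamma, made by T and NK cells, acts through another receptor. In T cells an interferon response can be seen in naive, regulatory and activated cells alike.

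The 7 genes that chose the cells were unequally represented in them. Pooled over the 908 members, IFI44L, an interferon-induced gene related to IFI44, was detected in 87.8% of cells and IFI44 in 86.3%. OAS1, which makes the messenger that activates the nuclease RNase L, was detected in 72.2%, XAF1, an interferon-induced regulator of apoptosis, in 63.9%, and ISG15, a ubiquitin-like modifier, in 61.0%. IFIT1, a binder of viral RNA caps, was detected in 29.4%. RSAD2 (viperin), although it belongs to the markers of this population, was detected in 20 members, or 2.20%, with 24 UMIs in all. Among other T cells the same genes were detected in 18.9% (IFI44L), 13.1% (IFI44), 5.51% (OAS1), 6.78% (XAF1), 5.67% (ISG15), 2.71% (IFIT1) and 0.0425% (RSAD2). These values follow from the choice of the cells and describe it.

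The counts did not fall into separate classes. The sum of the 7 genes was 0 in 58.4% of T cells. The number of cells at each further sum then fell with no gap at the threshold and varied at the higher sums, as the plot of T cells by summed UMIs shows. Of the members, 213 stood at exactly 5 summed UMIs, 631 between 5 and 9, 216 between 10 and 19 and 61 at 20 or more, with a median of 7 and a highest value of 76. Just outside, 330 T cells held exactly 4 UMIs over at least 3 genes, and 147 held 5 or more UMIs in fewer than 3 genes. Members thus form the upper end of a range, and they held 24.8% of all UMIs of the 7 genes in T cells.

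**Figure D1:**
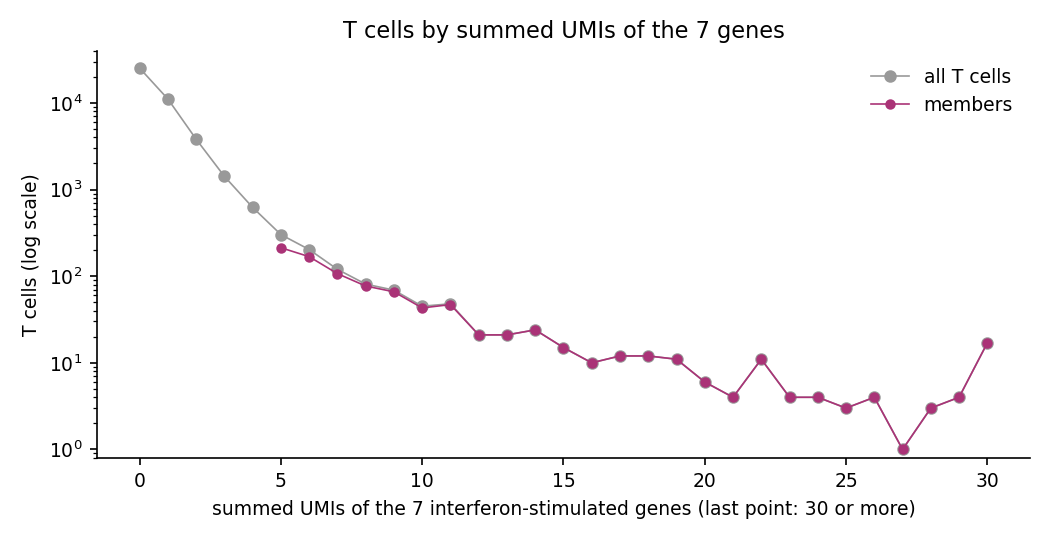
Number of T cells (log scale) at each sum of UMIs of the 7 interferon-stimulated genes, for all T cells (grey) and members (purple), with 30 or more in the last point. The grey line falls from 25241 cells at 0 without a break at 5, where 213 members sit.

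A set of members also carried transcripts of monocytes. T cells with at least 4 summed UMIs of 8 monocyte genes, among them CSF1R, CYBB, FN1, BPI, SPI1, FCGR1A and VCAN, made up 126 of 908 members (13.9%) and 637 of 42346 other T cells (1.5%). The limit was chosen after the distribution had been seen: 121 of these 126 members held 15 or more such UMIs, while 662 members held none. Members with monocyte genes had a median of 15877 UMIs, and 52.4% of them had a top doublet score from Scrublet, against a median of 7328 UMIs and 4.09% in the 782 members without. The other T cells had a median of 5459 UMIs and 4.53% top scores. Pooled over dogs, monocyte genes were found in 108 of 638 members of OS dogs (16.9%) and in 18 of 270 members of healthy dogs (6.67%). Such members numbered 0 to 25 per OS dog (median 9) and 0 to 8 per healthy dog (median 2), so the groups overlapped. The part of 2 cells in 1 droplet was not tested, and these cells are kept in the comparisons below unless it is said that they were left out.

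The summed level of T cell markers in the remaining members overlapped that in other T cells. Over the 10 T cell identity genes, the summed level per dog in members without monocyte genes was between 1911 and 2850 CPM (UMIs of the genes relative to all UMIs of the class, scaled to a common total), median 2052, against 1812 to 2584 CPM, median 1990, in other T cells. Of these 10 genes TRAT1 was called lower in members without monocyte genes (-1.18 ± 0.08, lower in 15 of 15 dogs, edgeR adjusted p = 6.18e-14), by the comparison described further on, and the other 9 were not called. Over the 12 myeloid markers counted, their summed level was between 2109 and 4159 CPM, median 3243, against 1222 to 3713 CPM, median 2431, in other T cells, nearly all of it S100A8, at a median of 3177 CPM in these members. S100A8 was detected in 77.2% of other T cells, and LYZ had a median of 28.2 CPM in members without monocyte genes. The 12 markers include the 8 genes used to leave these cells out, whose low levels follow from that choice. Of the 8 B cell markers CD79B was at 0 in members, whereas the gene annotated as CD79A was detected in 98.8% of other T cells and did not separate B cells from T cells in these counts. Summed levels of the 4 plasma cell markers (medians of 11.8 CPM in members without monocyte genes and 15.2 CPM in other T cells) and of the 3 platelet markers (47.2 and 41.4 CPM) had overlapping ranges.

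Every dog had members, and their share of T cells varied between dogs by more than counting error. In healthy dogs the share was 0.926, 0.577, 2.85, 0.831, 1.27, 1.17 and 4.37% for dogs 1 to 7, median 1.17%. In OS dogs it was 4.69, 3.51, 0.766, 2.04, 1.63, 1.25, 1.31, 2.87, 2.65 and 3.40% for dogs 1 to 10, median 2.35%. The highest shares, in OS dog 1 (95% exact binomial interval 3.91 to 5.58%) and healthy dog 7 (3.39 to 5.52%), lay outside the interval of the lowest, healthy dog 2 (0.277 to 1.06%). These intervals cover counting error only.

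Whether members were more frequent in dogs with OS was the first comparison of the design. The share was above the healthy median in 9 of 10 OS dogs, but the groups overlapped over most of their range, and a Wilcoxon rank-sum test over dogs, exact and two-sided, did not separate them (p = 0.161, means 1.71 ± 1.38% in healthy, SD, n = 7, and 2.41 ± 1.23% in OS dogs, SD, n = 10). Without cells with monocyte genes the medians were 1.19 and 1.97% (exact p = 0.315), and over T cells thinned to 3000 UMIs they were 0.202 and 0.63% (exact p = 0.270), with 827 shallower T cells of healthy and 1426 of OS dogs left out. With 1 dog left out at a time and cells with monocyte genes kept, the exact p ranged from 0.0420 without healthy dog 7 to 0.313 without healthy dog 2. These p-values were not adjusted for the number of dogs left out in turn. The level of the 7 genes summed over all T cells of a dog was between 83.2 and 226 CPM in healthy dogs, median 110 CPM, and between 85.7 and 214 CPM in OS dogs, median 141 CPM (exact p = 0.230).

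**Figure D2:**
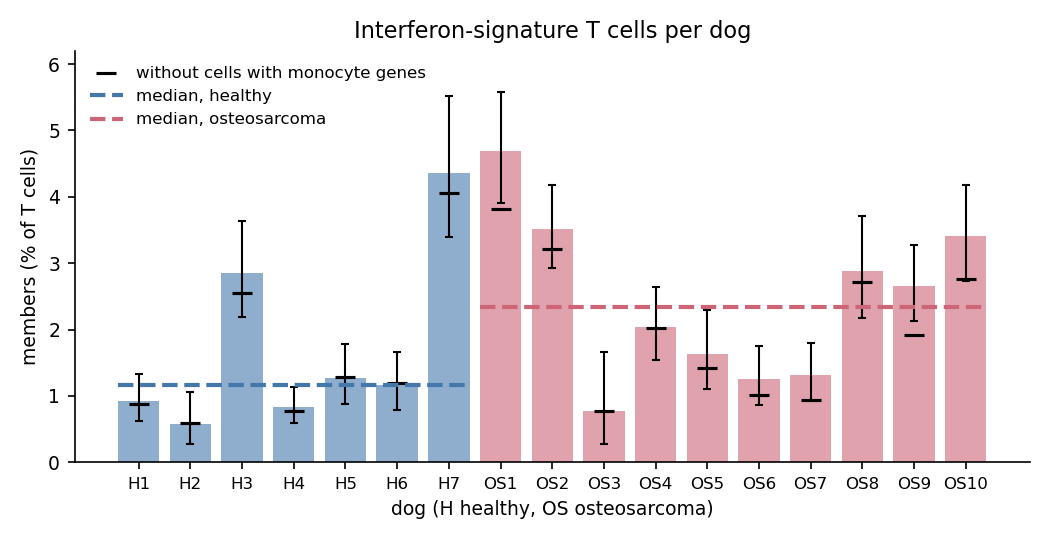
Members as a percent of T cells in each of 17 dogs (H healthy, OS osteosarcoma), with 95% exact binomial intervals as error bars, group medians as dashed lines and the value without cells with monocyte genes as a black mark. Both groups hold low and high dogs, from 0.577% in H2 to 4.69% in OS1.

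The share of members followed the same share in other cell types of the same dog. Among 11808 myeloid cells, taken as barcodes with S100A12 and without CD3E and MS4A1, 1205 were past the same threshold on the 7 genes, between 0.658 and 21.5% per dog. Among 4186 B cells, taken by MS4A1 alone, 78 were past it, between 0 and 5.37% per dog. Over the 17 dogs the member share correlated with the myeloid share (Pearson r = 0.867, permutation p = 4e-05, adjusted p = 8e-05 over 2 relations, Spearman rho = 0.887, permutation p = 1e-05, the smallest the permutations can give, adjusted p = 2e-05). Without the dogs farthest from the median myeloid share, healthy dog 7 and OS dog 9, r was 0.904. It was 0.953 within healthy and 0.764 within OS dogs.

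The relation with B cells had a lower coefficient and rested on few cells. Its Pearson r was 0.750 (permutation p = 0.00077, adjusted p = 0.00077) and its Spearman rho 0.722 (permutation p = 0.00148, adjusted p = 0.00148). Without healthy dog 7 and OS dog 2, r was 0.637, and it was 0.935 within healthy and 0.623 within OS dogs. With every cell thinned to 3000 UMIs, the myeloid relation held (r = 0.693, adjusted permutation p = 0.00136) and the B cell relation had r = 0.473 (adjusted permutation p = 0.0553). Without cells with monocyte genes r was 0.822 for myeloid cells and 0.765 for B cells. Median UMIs of the other T cells, as a measure of depth, had an r of -0.133 with the member share. Cells of all types in a dog share a library and its free RNA.

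The mixture of the 7 genes in members is described beside that in myeloid cells past the threshold, with no test, since the same genes chose the cells of both classes. In the 12 dogs with at least 10 cells of each kind, OAS1 made up 11.5 to 23.8% of the 7-gene UMIs in members, median 19.2%, and 23.9 to 48.9% in myeloid cells, median 32.7%, and was lower in members in 12 of 12 dogs (difference of means -15.0 ± 7.58 points, SD, n = 12). IFI44 (medians 22.2 and 14.5%), IFI44L (23.6 and 16.4%) and IFIT1 (4.55 and 2.01%) were each a larger part in members in 12 of 12 dogs. RSAD2 made up at most 1.05% in members and at most 14.8% in myeloid cells, and was lower in members in 9 of 12 dogs. The median part of OAS1 in members was 16.7% without cells with monocyte genes, and each of the 7 genes was higher or lower in as many dogs as with all members. The difference of means was, with all members, 2.26 ± 7.02 points for ISG15 and -2.55 ± 5.50 points for XAF1 (SD, n = 12). Only 3 dogs had enough B cells past the threshold, and RSAD2 was at 0 in the 78 B cells past the threshold of all dogs.

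**Figure D3:**
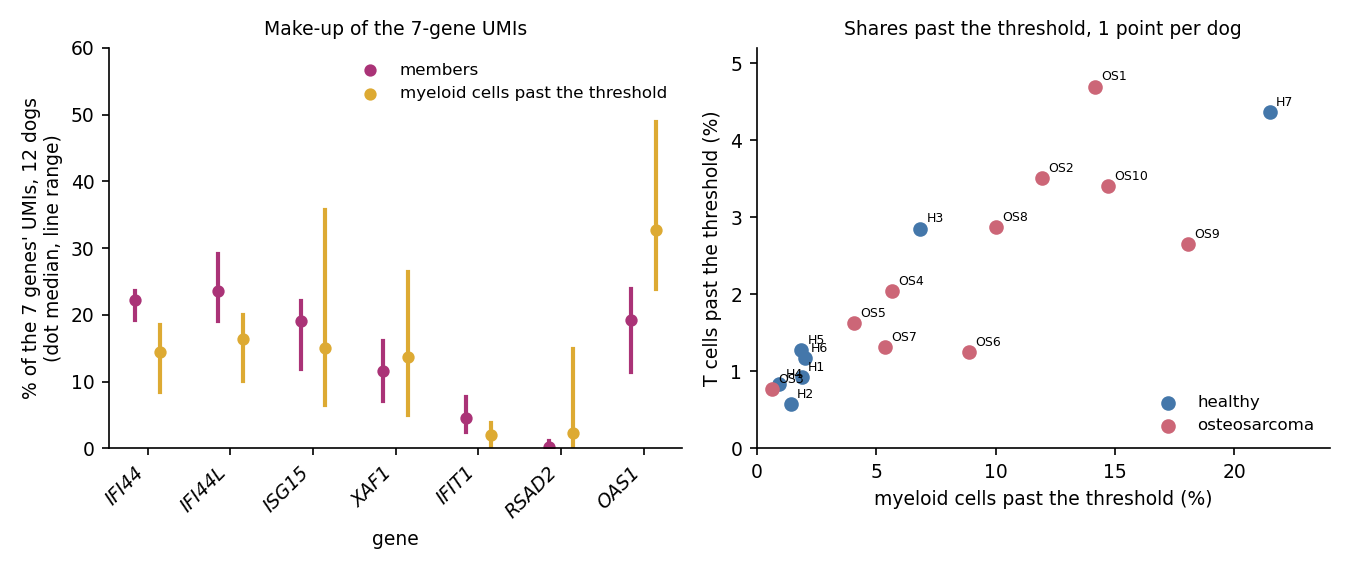
Left, percent of the 7 genes' UMIs from each gene per dog (12 dogs, dot median, line lowest to highest) in members (purple) and in myeloid cells past the same threshold (yellow): OAS1 and IFI44 ranges do not overlap. Right, percent of T cells against percent of myeloid cells past the threshold, 1 point per dog, running together from OS3 and H2 at the lower left to H7 and OS1.

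The gene comparison asked what else distinguished members from the other T cells of the same dog. UMIs were summed per dog and class in the 15 dogs with at least 25 members (6 healthy, 9 OS), and edgeR's quasi-likelihood test with the dog as block was applied to 15241 genes, the genes of the rule left out. Called genes had an adjusted p under 0.01 together with a log2 fold change beyond 0.58 in either direction. Of those tested, 1064 genes were called higher in members (6.98%) and 525 lower (3.44%). Without cells with monocyte genes these counts were 473 (3.13% of 15120) and 405 (2.68%), and 353 of the 473 and 290 of the 405 were also called with all members. Those shared calls were 33.2% of the 1064 higher and 55.2% of the 525 lower calls, so most of the higher calls were not kept without these cells. With DESeq2's size factors the counts with all members were 1207 and 336, so that 78.2% of the calls were higher, against 67.0%. The median log2 difference over all genes was -0.12 with edgeR's normalization, -0.04 with those size factors and 0.12 with DESeq2, and changes are to be read against it. Fold changes below are log2 values with an approximate standard error, and levels are CPM per dog. For edgeR this error is the absolute fold change over the square root of the test's F statistic. It restates the test and is not a separate estimate. Fewer responding cells and less RNA per responding cell cannot be told apart in such sums.

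Antiviral effectors that took no part in the choice were higher in members. Of 17 tested, 11 were called higher and none lower, with a median log2 fold change of 1.47 against -0.12 over all genes, and the counts were the same without cells with monocyte genes (median 1.59). MX2, a GTPase that blocks the import of viral genomes into the nucleus, was at 147 to 528 CPM in members, median 359, and at 42.0 to 123 CPM in other T cells, median 50.1 (2.61 ± 0.10, adjusted p = 6.17e-17). Its ranges did not overlap, and it was higher in members in 15 of 15 dogs. RTP4, an interferon-induced chaperone of receptors, was at 17.8 to 48.3 CPM in members and at 0.95 to 3.96 CPM in other T cells (3.8 ± 0.20, adjusted p = 5.17e-14), again without overlap.

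Other effectors ranged widely in level. OAS2, like OAS1 an oligoadenylate synthetase, was at 0 to 124 CPM in members, median 43.0, against 0.925 to 5.84 CPM (4.08 ± 0.27, adjusted p = 6.35e-12), but its median in members without monocyte genes was 6.96 CPM (3.38 ± 0.34). IFIT2, a partner of IFIT1, was at 0 to 43.4 CPM in members and at 0 to 10.8 CPM in other T cells (1.80 ± 0.18, adjusted p = 2.56e-08). SAMD9L, a translation inhibitor, and the exonuclease ISG20 were among the abundant effectors called, with medians of 375 and 321 CPM in members and 116 and 102 CPM in other T cells. Several genes of the same list did not pass: TRIM22 had a median of 220 CPM in members and 265 CPM in other T cells, LY6E 562 and 488 CPM, and IFIT5 12.6 and 14.9 CPM. OASL has 2 gene entries in these counts, and the entry ENSCAFG00000010511 was called (1.62 ± 0.15) whereas ENSCAFG00000024447 was not (0.45 ± 0.11), so its level is uncertain where reads could be split.

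Sensors of nucleic acid and the ubiquitin and PARP group showed the same direction. Of 8 sensors tested 6 were called higher, 5 without cells with monocyte genes. DDX58, which encodes the RNA sensor RIG-I, was at 36.2 to 83.0 CPM in members and at 8.84 to 16.6 CPM in other T cells (2.11 ± 0.11, adjusted p = 4.13e-14), with no overlap. CGAS, the DNA sensor, had a median of 9.03 CPM in members and 0.639 CPM in other T cells (4.17 ± 0.36), and EIF2AK2, the kinase PKR, 11.3 and 1.25 CPM (3.12 ± 0.31). Both stood lower without cells with monocyte genes (CGAS median 0 CPM, 2.80 ± 0.45, EIF2AK2 5.22 CPM, 2.49 ± 0.36). CGAS was then higher in members in only 7 of 15 dogs and lower in 8, and EIF2AK2 higher in 11 of 15. STING1, the adaptor that signals for CGAS, was called with all members (2.17 ± 0.34, adjusted p = 1.18e-05) but not without these cells (0.31 ± 0.58, adjusted p = 0.765).

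Of 9 genes of ubiquitin-like modification and PARP activity, 7 were called higher, with and without the monocyte-gene cells. EPSTI1, an interferon-induced gene of epithelial and stromal interaction, was at 70.4 to 191 CPM in members and 11.5 to 32.1 CPM in other T cells (2.60 ± 0.10, adjusted p = 6.17e-17). HERC6, a ligase of the ISG15 family, rose by a log2 value of 2.12 ± 0.11, PARP14, a mono-ADP-ribosyltransferase, by 1.82 ± 0.12, and TRIM25, the ubiquitin ligase that activates RIG-I, by 1.55 ± 0.08, each higher in 15 of 15 dogs. UBE2L6, the conjugating enzyme for ISG15, had medians of 170 and 73.3 CPM (1.12 ± 0.07, adjusted p = 8.54e-13). DTX3L (0.36 ± 0.07) and PARP12 (0.08 ± 0.11) were not called.

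Few of the upstream signalling genes in the counts were called. These lists were too short to set apart from the shares over all genes, 6.98% called higher and 3.44% lower. IFNAR1, IFNAR2, IRF7 and IRF9 had no entry and are missing from them. Of 8 interferon-related transcription factors tested only STAT2 was called, at a median of 36.4 CPM in members and 19.1 CPM in other T cells (0.93 ± 0.14, adjusted p = 1e-05). Without cells with monocyte or cell cycle genes, 2 of the 8 were called higher, where 1.63% of all genes were. None of 5 receptor and kinase genes was called, the most abundant being JAK1, at a median of 778 CPM in members and 922 CPM in other T cells (-0.29 ± 0.04, lower in 14 of 15 dogs), and JAK2, at 346 and 294 CPM. None of 5 negative regulators was called, with medians from 0 CPM for SOCS1 to 436 CPM for PTPN6 in members. Of the interferon genes, IFNG was at 0 to 9.03 CPM in members and 0 to 8.12 CPM in other T cells, and neither it nor IFNK was called.

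Some genes associated with interferon gamma and antigen presentation were called higher and none lower. CXCL10, a chemokine that attracts CXCR3+ T cells, was at 0 to 60.5 CPM in members, median 10.5, and at 0.701 to 5.06 CPM in other T cells (2.85 ± 0.38, adjusted p = 1.17e-06), and it stayed called without cells with monocyte genes (2.98 ± 0.38). CD274, which encodes PD-L1, was called with all members (1.19 ± 0.28, adjusted p = 0.00171) but neither without those cells (0.29 ± 0.35, adjusted p = 0.622) nor without OS dog 1 (0.93, adjusted p = 0.0143). Of 11 antigen processing genes 3 were called higher, 2 without cells with monocyte genes and 1 when the other T cells were also depth-matched. The list median was 0.32 with all members, against -0.12 over all genes. TAP1 (0.32 ± 0.04) and PSMB10 (0.38 ± 0.06) were higher in 15 of 15 dogs and PSME1 (0.31 ± 0.05) in 14 of 15, short of the limit on the fold change. TAPBP, the tapasin of peptide loading, had medians of 195 and 124 CPM (0.64 ± 0.06, adjusted p = 3.62e-09) and was called in all of these comparisons. The proteasome activator PSME2 (0.64 ± 0.07) and the guanylate-binding protein GBP1 (0.66 ± 0.08) were called without cells with monocyte genes but not with all members (0.53 and 0.51). The MHC class II genes CD74 (0.83 ± 0.10) and DLA-DQA1 (0.65 ± 0.09) were called with all members and not without them (0.28 ± 0.06 and 0.26 ± 0.09). B2M, the light chain of MHC class I, was at medians of 11970 CPM in members and 12030 CPM in other T cells. With all members it was the only gene of this list with a negative value (-0.08 ± 0.03).

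**Figure D4:**
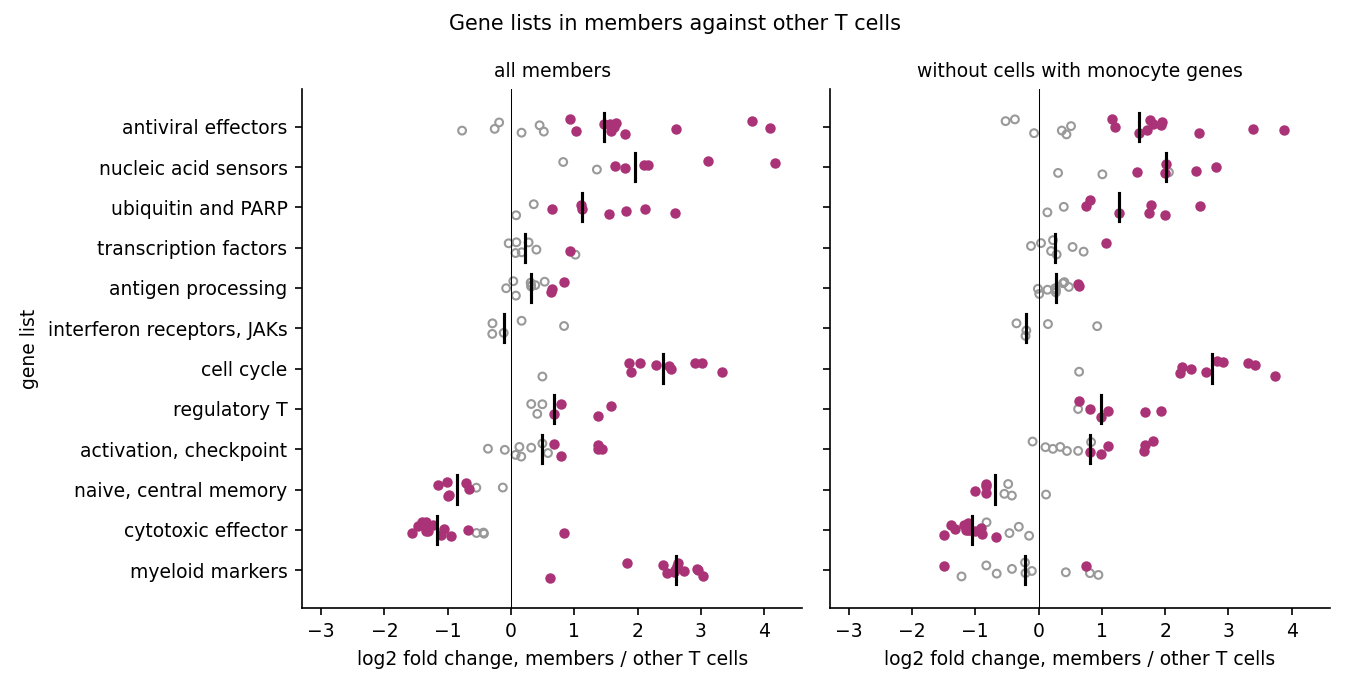
Log2 fold change of each gene of 12 gene lists in members against other T cells, with all members (left) and without cells with monocyte genes (right), filled where called at the thresholds given in the text, with list medians as black bars. Medians of antiviral, sensor, ubiquitin and cell cycle genes lie above 1 in both panels, while most of the myeloid markers (medians 2.61 and -0.21) were themselves used to leave cells out in the right panel.

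Genes of cell division were higher in members. Of 10 cell cycle genes 9 were called higher with a median log2 fold change of 2.40, and 9 were called without cells with monocyte genes (median 2.73), also when the other T cells were depth-matched (median 2.16), a comparison that called 2.82% of all 14268 genes higher and 2.99% lower. MKI67, a nuclear protein of proliferating cells, was at 0 to 114 CPM in members, median 41.2, and at 1.03 to 9.72 CPM in other T cells, median 4.31 (3.34 ± 0.27, adjusted p = 3.74e-10), and was higher in 14 of 15 dogs. ASPM, a spindle protein, had medians of 27.4 and 3.02 CPM (3.01 ± 0.33), TOP2A, the topoisomerase of replicated chromosomes, 36.0 and 4.12 CPM (2.90 ± 0.37), and KIF11, a mitotic kinesin, 24.6 and 3.41 CPM (2.52 ± 0.23). PCNA, a replication clamp, was not called (0.50 ± 0.23). Cells with at least 2 of the 10 genes detected, a limit chosen after these values were seen, made up 104 of 782 members without monocyte genes (13.3%) and 443 of 15640 depth-matched other T cells (2.83%). Per dog their share was 6.45 to 20% of members, median 12.9%, and 1.48 to 8.5% of matched cells, median 2.78%, higher in members in 16 of 16 dogs with at least 10 members. The cycling members had a median of 12711 UMIs and the cycling matched cells 9481 UMIs, so the match in depth was incomplete for them. Without cells that had monocyte or cell cycle genes, which left 11 dogs with enough members (5 healthy, 6 OS), the counts over all genes were 238 higher (1.63% of 14625) and 287 lower (1.96%), and 11 of 17 antiviral effectors, 5 of 8 sensors and 6 of 9 ubiquitin and PARP genes were called higher.

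Some genes of regulatory and activated T cells were higher in members, and most of the activation genes tested were not called. Of 7 regulatory T cell genes 4 were called higher, 6 without cells with monocyte genes and 5 without cycling cells as well, and the median log2 fold change was 0.67. Of all genes, 6.98, 3.13 and 1.63% were called higher in these comparisons. CTLA4, an inhibitory receptor, was at 141 to 251 CPM in members, median 171, and at 73.0 to 138 CPM in other T cells, median 98.1 (0.79 ± 0.07, adjusted p = 3.94e-09), with ranges that did not overlap. TNFRSF18 (GITR), a costimulatory receptor, had medians of 23.5 and 8.87 CPM (1.38 ± 0.14, adjusted p = 1.96e-08), and IKZF2 (Helios), a transcription factor of regulatory T cells, 333 and 199 CPM (0.67 ± 0.13, adjusted p = 0.000234). FOXP3, the defining factor of regulatory T cells, was sparse, at 0 to 9.79 CPM in members and 0.511 to 1.73 CPM in other T cells (1.59 ± 0.39, adjusted p = 0.00244, higher in 11 of 15 dogs). The call of IKZF2 was lost without OS dog 4 (0.56) and that of FOXP3 without OS dog 10 (1.28, edgeR adjusted p = 0.0152). FOXP3 was also not called without cells that had monocyte or cell cycle genes (1.88, edgeR adjusted p = 0.0136).

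Of 13 activation and checkpoint genes 5 were called higher, where 6.98% of all genes were, and 6 without cells with monocyte genes, where 3.13% were. None was called lower. Besides CTLA4 and TNFRSF18, the 5 held TNFRSF4 (OX40), at medians of 19.5 and 7.23 CPM (1.37 ± 0.19), PDCD1 (PD-1), at 13.8 and 8.90 CPM (0.68 ± 0.17), and TIGIT, at 2.27 and 0.920 CPM (1.44 ± 0.39). The call of TIGIT was lost when any of healthy dogs 1, 4 and 6 or OS dogs 5, 7, 8 and 9 was left out (1.16 without OS dog 8), and that of MAF without healthy dog 1, 5 or 6 (0.56 to 0.57). Against depth-matched other T cells neither TIGIT (1.28) nor MAF (0.54) was called with all members, but both were called without cells with monocyte genes (1.545 and 0.77). Without monocyte and cycling cells TIGIT was not called (0.78, edgeR adjusted p = 0.496) and MAF was (0.89). ICOS was added without cells with monocyte genes (0.81 ± 0.08). Among the genes called with all members, CTLA4 and TNFRSF18 count in both this list and that of regulatory T cells, so the lists are not separate. The early activation marker CD69 (-0.10), the costimulatory receptor CD28 (0.16), the CD40 ligand gene CD40LG (-0.36) and the interleukin-2 receptor chain IL2RA (0.32) were not called. They were not called without cells with monocyte genes either, where their values were 0.11, 0.45, -0.09 and 0.62, so that CD69 turned in sign and CD28 was higher in 14 of 15 dogs. Among helper lineage genes MAF, a factor of follicular and regulatory cells, was called higher (0.61 ± 0.07) and IL18R1 lower (-0.98 ± 0.12), as was TBX21, the factor of type 1 cells (-1.05 ± 0.25), though not without cells with monocyte genes (-0.82 ± 0.24). Against depth-matched other T cells TBX21 was not called with all members (-0.62) or without cells with monocyte genes (-0.41). It was called lower without monocyte and cycling cells (-0.93). Without cells with monocyte genes GATA3, the factor of type 2 cells (0.60 ± 0.09), and the chemokine receptor CCR6 (0.79 ± 0.21) were called higher, but not when the other T cells were also depth-matched (0.53 and 0.44) nor without cycling cells (0.57 and 0.88).

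CTLA4 was also detected in more cells. Against depth-matched other T cells, and over 16 dogs with at least 10 members, CTLA4 was detected in 38.6 to 70.0% of members, median 51.7%, and in 20.5 to 38.6% of matched cells, median 31.2%, and was higher in members in 16 of 16 dogs. The medians were 57.9 and 31.7% without cells with monocyte genes, again higher in 16 of 16 dogs. It was detected in 0.449% of myeloid cells, whose median was 4336 UMIs against 7988.5 in members and 6425 in matched cells. Among members without monocyte genes CTLA4 was detected in 79.8% of cycling and in 50% of other cells, which had medians of 12711 and 6725.5 UMIs. In the matched cells without monocyte genes it was detected in 49.7% of cycling and in 29.7% of other cells. The CTLA4 shares were looked at after the gene values were known and were not tested.

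Genes of naive and central memory cells were lower in members. Of 8 tested 6 were called lower, 4 without cells with monocyte genes, and none higher. Of all genes, 3.44 and 2.68% were called lower in these comparisons. SATB1, a chromatin organizer of naive T cells, was at 170 to 649 CPM in members, median 343, and at 362 to 954 CPM in other T cells, median 758 (-1.15 ± 0.07, adjusted p = 4.07e-12). The lymph node homing receptor CCR7 had medians of 79.0 and 150 CPM (-1.01 ± 0.13), the transcription factor LEF1 450 and 920 CPM (-1.0 ± 0.08) and BACH2, a repressor that maintains quiescence, 227 and 502 CPM (-0.98 ± 0.09). All 4 were lower in 15 of 15 dogs. IL7R (-0.66 ± 0.07) and TCF7 (-0.71 ± 0.09) were called with all members and not without cells with monocyte genes, where they were at -0.42 ± 0.05, lower in 15 of 15 dogs, and -0.48 ± 0.08, lower in 13 of 15, short of the limit on the fold change. TRAT1, an adaptor of the T cell receptor, was the only one of 10 T cell identity genes called, at medians of 88.8 and 212 CPM (-1.35 ± 0.08, adjusted p = 5.93e-13), lower in 15 of 15 dogs.

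Cytotoxic genes were lower in members as well. Of 16 tested 12 were called lower, with a median log2 fold change of -1.17, and 12 without cells with monocyte genes, but 8 against depth-matched cells without monocyte genes and 6 against depth-matched cells with all members, where 2.91% of all 14588 genes were called lower and 5.72% higher. KLRD1 (CD94), a receptor of NK and CD8 T cells, was at 8.07 to 79.5 CPM in members and 25.1 to 190 CPM in other T cells (-1.56 ± 0.13, adjusted p = 4.1e-10), lower in 15 of 15 dogs. NCR3, an activating NK receptor, had medians of 58.8 and 128 CPM (-1.41 ± 0.16), GZMA, a granule protease, 42.7 and 96.9 CPM (-1.34 ± 0.21), and PRF1, perforin, 4.53 and 5.82 CPM (-1.47 ± 0.27, lower in 13 of 15 dogs). Matching by depth made these differences smaller: the list median was -0.70 with all members and -0.63 without cells with monocyte genes. With all members KLRD1 had -1.17, NCR3 -0.94, GZMA -0.92 and PRF1 -0.99 against depth-matched cells, where PRF1 was not called. GZMB, at medians of 96.8 and 262 CPM (-1.11 ± 0.14), was not called against the depth-matched cells without monocyte genes (-0.48). ZEB2, a factor of effector T cells that monocytes also express, was called higher with all members (0.83 ± 0.22) and lower without cells with monocyte genes (-1.01 ± 0.10).

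**Figure D5:**
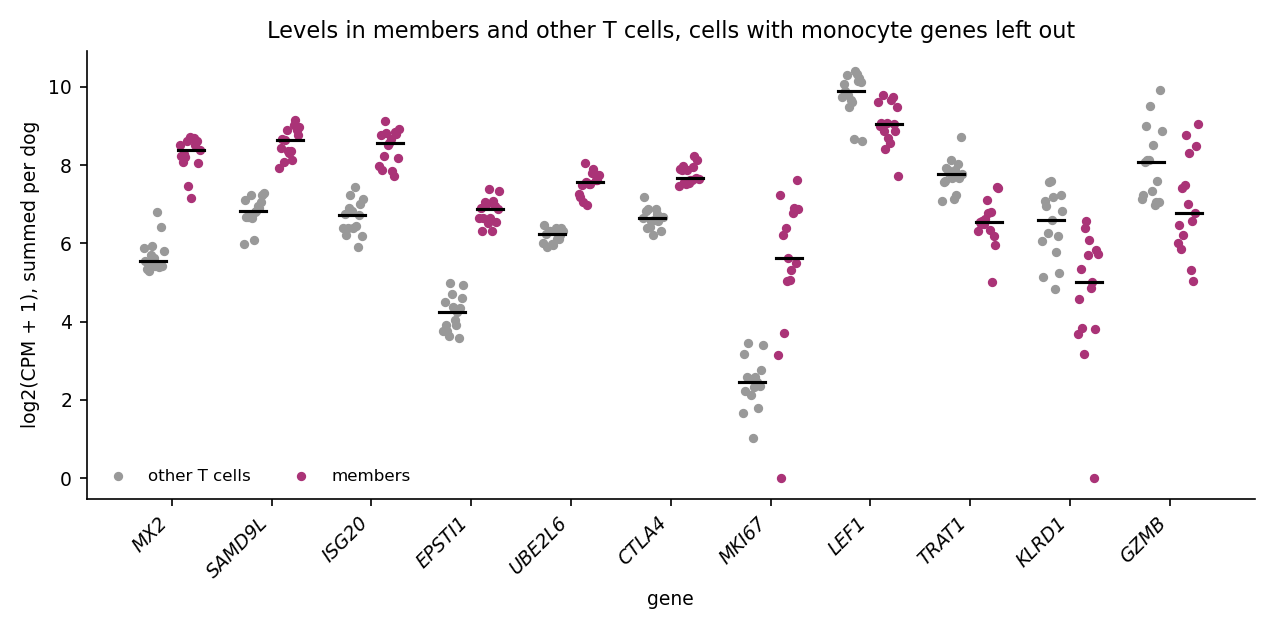
Levels of 11 genes as log2(CPM + 1) of summed UMIs in 15 dogs, in members (purple) and other T cells (grey) without cells with monocyte genes, 1 point per dog and the median as a bar. MX2 and CTLA4 ranges do not overlap between the classes, and LEF1, TRAT1, KLRD1 and GZMB medians are lower in members.

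The shares of cells with a subset gene were tested over 16 dogs against depth-matched T cells, with p-values adjusted over 5 genes or gene groups. The match was incomplete, with medians of 7988.5 UMIs in members and 6425 in matched cells, and of 7328 and 6544 UMIs without cells with monocyte genes. CD8A without CD4 was detected in 0 to 22.1% of members, median 8.68%, and in 6.69 to 27.8% of matched cells, median 17.1%, and was lower in members in 15 of 16 dogs (exact sign-flip permutation test, adjusted p = 0.000534). CCR7 was detected in 14.3 to 60.6% of members, median 29.9%, and in 19.7 to 58.6% of matched cells, median 44.0%, lower in 14 of 16 dogs (exact permutation, adjusted p = 0.000534). The share of myeloid cells with a UMI was 0.144% for CD8A without CD4 and 0.949% for CCR7.

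CD4 without CD8A was 3.32 ± 6.02 points more frequent in members (SD, n = 16, exact permutation, adjusted p = 0.0536), and FOXP3 1.45 ± 2.63 points (SD, n = 16, exact permutation, adjusted p = 0.0536). FOXP3 was detected in only 21 members, at a per-dog median of 1.63% of members and 0.811% of matched cells. Without cells with monocyte genes both passed 0.05 (exact permutation, adjusted p = 0.0229 and 0.0413), with differences of 5.25 and 1.78 points. The share with any of GZMA, GZMB, GZMK and CCL5 was 1.49 ± 7.58 points lower (SD, n = 16, exact permutation, adjusted p = 0.441), which did not pass the test. CD4 was detected without CD8A in 0.621% of B cells but in 63.4% of myeloid cells, FOXP3 in 0.0239 and 0%, and any of the 4 cytotoxic genes in 3.18 and 3.02%. Monocyte genes were found in 13.9% of members and 1.5% of other T cells, and the CD4 difference without those cells is the 5.25 points given above. By these genes 333 members held CD4 without CD8A, 97 CD8A without CD4, 13 both and 465 neither, which were 2.46, 1.23, 4.26 and 2.16% of the T cells of each kind. These shares were not matched in depth, and the T cells of each kind had medians of 6033, 5139, 8306 and 5244 UMIs. Of the members of each kind, 23, 15, 1 and 87 had monocyte genes.

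Outside the lists, 101 genes called higher and 87 called lower passed the rule for naming, which asked for at least 20 CPM and the same direction in 15 of 15 dogs. Among the 10 highest, LGALS9 (galectin 9), at 146 to 294 CPM in members and 35.5 to 70.8 CPM in other T cells (1.99 ± 0.07, adjusted p = 8.07e-18), GNG3, a G protein subunit (2.20 ± 0.15), the proteases CTSH (2.51 ± 0.22) and CTSS (2.07 ± 0.18) and FRMD4B (2.52 ± 0.23) stayed called without cells with monocyte genes, though CTSH, CTSS and FRMD4B at smaller values (1.53, 0.94 and 1.58). LPCAT2 (2.21 ± 0.19), RAB20 (2.12 ± 0.23) and DGKG (2.0 ± 0.19) were not called without those cells. Unnamed genes ENSCAFG00000006557, at 13.6 to 75.9 CPM in members and 0.752 to 4.86 CPM in other T cells (4.14 ± 0.25), and ENSCAFG00000016252 (2.09 ± 0.10) completed the 10.

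Without cells with monocyte genes, 5 further named genes entered the 10 highest: HSH2D, an adaptor (2.0 ± 0.19), DYNLL1, a dynein light chain (1.99 ± 0.13), the tubulin TUBB6 (1.98 ± 0.19), NRP1, a receptor found on regulatory T cells in mice (1.78 ± 0.21), and RNF213, an interferon-induced ubiquitin ligase, at 123 to 209 CPM in members and 35.1 to 58.2 CPM in other T cells (1.77 ± 0.07). Among the 10 lowest were COL6A5, a collagen chain (-1.90 ± 0.24), STYK1, a kinase of NK cells (-1.67 ± 0.21), the transcription factor MYBL1 (-1.44 ± 0.18), the transcriptional corepressor TLE1 (-1.34 ± 0.16), SNTB1, a syntrophin (-1.28 ± 0.11), CDC42BPA (-1.20 ± 0.14), ADGRG1, a receptor of cytotoxic lymphocytes (-1.19 ± 0.13), CD8A (-1.18 ± 0.15), and the unnamed ENSCAFG00000024259 (-2.24 ± 0.24) and ENSCAFG00000010895 (-1.57 ± 0.12). All 10 were also called lower without cells with monocyte genes. In that comparison TNS1 (-1.38 ± 0.18), FAM241A (-1.21 ± 0.12) and NR3C2, the mineralocorticoid receptor (-1.16 ± 0.09), were also among the 10 lowest, although TNS1 (0.82 ± 0.25) was not called with all members.

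Lists of other cells and states give the setting of these values. All 12 myeloid markers tested were called higher with all members, and 8 of them defined the cells with monocyte genes, so their values without those cells follow from that choice. Of the other 4, S100A8 was called higher without those cells (0.74 ± 0.05), and LYZ (-0.42 ± 0.13), CD68 (0.43 ± 0.47) and CSF3R (0.95 ± 0.74) were not called. LYZ, lysozyme, was at 10.6 to 8299 CPM in members, median 3329, and at 139 to 1642 CPM in other T cells. Of 8 immediate early and stress genes 4 were called higher with all members, namely FOS (2.25 ± 0.30), FOSB (2.07 ± 0.30), EGR1 (2.07 ± 0.37) and DUSP1 (1.79 ± 0.28), and none without cells with monocyte genes, where FOS had -0.32 ± 0.25. Of 8 B cell markers BANK1, which these myeloid cells also held, was the only one called (1.83 ± 0.28) and was not called without those cells, and none of 4 plasma cell and 3 platelet markers was called. Of the interferon signature genes that the study chose on these samples, 3 of 5 from its CD4 T cells and 7 of 7 from its monocytes were called higher, which is not independent evidence of their direction.

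Levels of genes outside the rule were also set against the sum of the 7 genes across T cells. Pooled over dogs and without cells with monocyte genes, the 16 antiviral effector symbols outside the rule summed to 1090 CPM in T cells with none of the 7 genes, 1158 CPM at 1 to 2 summed UMIs, 1381 CPM at 3 to 4, 1985 CPM in members at 5 to 9, 3050 CPM at 10 to 19 and 4690 CPM at 20 or more (44 cells). The 8 sensors went from 23.5 to 337 CPM. CCR7 ran the other way, from 168 to 55.0 CPM, and TRAT1 from 240 to 80.3 CPM at 10 to 19 and 87.5 CPM at 20 or more. CTLA4 rose from 88.4 CPM to 248 CPM at 10 to 19 and was 237 CPM at 20 or more. These pooled levels have no replicate error and are a description. Dogs add unequal numbers of cells to each class of the sum and differ in their own levels (CCR7 in other T cells was at 63.9 to 219 CPM per dog), and the part of this in the order of the pooled levels was not tested.

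Within members, OS and healthy dogs were compared over 9 and 6 dogs. At the same thresholds edgeR called none of 10913 genes higher or lower (0%), while 978 genes (8.96%) had an unadjusted p below 0.05. DESeq2 called 1 gene, ANO6, a membrane phospholipid scramblase named here after its values were seen. ANO6 was at 163 to 280 CPM in members of OS dogs, median 234, and at 64.6 to 180 CPM in those of healthy dogs, median 131 (DESeq2 log2 fold change 0.86 ± 0.17, adjusted p = 0.0028, edgeR adjusted p = 0.15). Over all 17 dogs, which include a healthy and an OS dog with too few members for the gene comparison, the level of the 7 genes within members overlapped between the groups, at 820 to 1436 CPM in healthy dogs, median 981, and 774 to 1178 CPM in OS dogs, median 1014. The same threshold on these genes chose the members in both groups, so this overlap follows in part from the rule. In counts simulated from a common profile with the same samples, the test recovered 60% of 2-fold and 97% of 4-fold changes. The changes were planted only in genes with higher counts, so recovery over all tested genes was not measured. Smaller differences, and differences in sparser genes, could have been missed. Pooled over dogs, cells with monocyte genes were a larger part of members in OS than in healthy dogs, and the dogs varied. Without these cells 516 of 10285 genes had an unadjusted p below 0.05 and again none was called.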

How the data were processed

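Leukocytes of blood from 17 dogs were enriched on a density gradient and 1 single-cell 3' library was made per dog. The raw UMI counts per gene and barcode were deposited by the authors as 1 matrix per dog. The submitters' processing notes name Cell Ranger 7.0.0, CanFam3.1 and Seurat. Counts with and without introns were made, and which of them these matrices hold is not given in the sources used here.

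Groups were taken from the labels. Barcodes were kept with over 200 and under 4500 genes, over 500 and under 20000 UMIs and under 10% mitochondrial UMIs, which left 84345 of 93013. Libraries held 7740230 to 56510134 UMIs and any 2 of them shared at most 16 barcodes (0.332%). Doublets were scored with Scrublet in scanpy 1.11.5 and removed only as an alternative. Levels are CPM of UMIs summed per dog and class. The 10 genes of the rule were left out of calls and counts. Each member was matched to 20 other T cells of its dog by depth. Gene tests used edgeR 4.0.16 with TMM in R 4.3.3, at least 10 counts per gene, dog as block for members against other T cells, and calls at adjusted p below 0.01 (Benjamini-Hochberg) with absolute log2 fold change over 0.58. DESeq2 1.42.0 was an alternative. Shares were compared with exact tests over dogs, two-sided. The dogs are separate animals with 1 sample each. Simulated counts with known changes recovered 77% of 2-fold and 92% of 4-fold changes for members against other T cells (15059 genes) with 1 false call. The counts were drawn from a common profile, and changes were planted only in genes with higher counts, so recovery in sparser genes was not measured.

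Genes named are those of the rule, the 4 called members of each list with the largest change, the 10 genes outside the lists with the largest change in each direction, and further list members named after their values were seen. Members and lists were chosen with earlier results of these data known. Several interferon genes (among them MX1, IRF7, IRF9, IFIH1, USP18, IFNAR1 and IFNAR2) were not analysed here because no entry of the count tables carried their symbols, and a few other genes are not reported here.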

Additional observations from a re-analysis of the deposited data

Results flagged for a closer look

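Of 16 sets of per-dog values examined for a sample far from the others, 2 held one, and both were healthy dog 7. Chance marks about 1 in 20 such sets. In this dog 21.5% of myeloid cells were past the threshold on the 7 interferon-stimulated genes, against 6.86% in the next healthy dog, a gap of 0.712 of the whole range, above Dixon's critical value for 7 samples. Of its B cells 5.37% were past the threshold, against 2.24% in the next healthy dog (a gap of 0.613 of the range). Its member share of 4.37% was the highest of the healthy dogs as well but was not set apart in the same way.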

How the results depend on the processing

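The alternatives that left out cells with monocyte or cell cycle genes were chosen after seeing the data. Calls of genes higher in members (1064) became 473 without cells with monocyte genes, 403 when the other T cells were also depth-matched and 238 without cycling cells as well (11 dogs). Calls lower (525) became 287 without monocyte and cycling cells, 329 with DESeq2 and 336 with its size factors in edgeR. Leaving out 1 dog at a time gave 972 to 1078 higher and 459 to 639 lower. Of the 73 genes named by the size of their change, 49 kept their call under all settings run. Other genes named in the text are not in this count. Of the 73, 6 changed their call when 1 dog was left out: TIGIT, MAF, CD274, FOXP3 and IKZF2, as given above, and TNS1, which was called without healthy dog 5 (0.96), healthy dog 6 (0.86) or OS dog 8 (0.93).

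Directions reversed for TNS1 (-1.38 without cells with monocyte genes, -1.39 also depth-matched, -1.21 also without cycling cells), EGR1 (-0.42, -0.45 and -0.79) and FOS (-0.32, -0.34 and -0.31) under the same settings. Among the other genes named, ZEB2 (-1.01, -0.62 and -0.87), BANK1 (-0.66, -0.87 and -0.72) and LYZ (-0.42, -0.40 and -0.34) also reversed under these settings. CD274 had -0.13 without monocyte and cycling cells, and STING1 -0.051 without monocyte genes and depth-matched. The cause was not tested.

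The difference between the median shares of OS and healthy dogs (1.18 points) was 0.871 to 1.49 points with 1 dog left out, past 0.05 only without healthy dog 7 (difference 1.30 points, exact p = 0.0420), and the difference of the median 7-gene levels 25.7 to 40.0 CPM. Against all other T cells instead of depth-matched ones, the differences were 7.90 points for CD4 without CD8A, -5.43 for cytotoxic genes and 1.76 for FOXP3, each past 0.05. FOXP3 was also past it without top doublet scores (2.01 points) and without cells with monocyte genes (1.78), as was CD4 (5.25). With 1 dog left out, CD4 ranged from 2.51 to 3.98 (past 0.05 without healthy dog 1, healthy dog 6 or OS dog 5), FOXP3 from 1.11 to 1.71 (without healthy dog 2, healthy dog 6 or OS dog 5), CD8A from -7.96 to -6.46, CCR7 from -12.1 to -10.1 and cytotoxic genes from -2.32 to -0.560. IFI44 against B cells was -0.0140 points and 0.991 without top doublet scores or 1.44 without monocyte genes, in 3 dogs. The B cell relation had r = 0.473 after thinning.

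Without the dog as block, members against other T cells gave 1025 higher and 402 lower genes. Healthy and OS dogs share replicate numbers only as names. Their 5 pairs deviated with correlations from -0.204 to 0.254, 2 over 0.1 and 1 highest for its own number, and the replicate block over these 10 dogs called 0 genes higher and 0 lower, as did the fit without it. DESeq2 called 1 gene higher in OS. The planned filter on further lineage genes left no members, since CD79A was detected in nearly all T cells, and a threshold of 8 UMIs left too few B cells.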

Other observations

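The rule left out 2933 barcodes with CD3E that also held MS4A1 or S100A12, and 170 of them were past the same threshold on the 7 genes. They enter no comparison.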
